A study of Homo sapiens with 12 samples.

Results

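The second week of osteogenic culture was examined in parental SaOS-2, an established human osteosarcoma cell line, by setting the 2 arrays of day 14 against the 2 arrays of day 7. These 4 arrays were chosen by their labels from the 12 arrays of the series, 1 array of total RNA per sample. The 2 SaOS-2 arrays of day 0 served to tell changes of the first week that were undone from changes that began late, and 6 arrays labelled Sa/CD99 (clones wt22 and wt36 of the same line, 1 array of each at days 0, 7 and 14) were read for comparison only. The parental cells carried no transgene, whereas the clones had been stably transfected for CD99 and selected with neomycin, and each clone is a single line, so a difference between the clones and the parent can come from transfection, selection or cloning. All cells were grown in IMDM and, after seeding, moved to osteogenic medium with less serum, ascorbic acid and β-glycerophosphate. Day 0 was profiled at basal conditions, before that medium, so a first-week change includes the change of medium and serum. Whether the 2 arrays of a parental day stand for separate cultures is not stated in the labels, so the p-values below measure the spread between those arrays, which may be technical.

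Osteoblasts pass in culture from proliferation through deposition of a collagen matrix to mineralization of that matrix, and ascorbic acid is a cofactor for the hydroxylation of collagen while β-glycerophosphate supplies phosphate for mineral. SaOS-2 is a bone tumour line known for high alkaline phosphatase and for laying down mineral in such medium. Alkaline phosphatase, bone sialoprotein and fibrillar collagens mark the progress of the program, and RUNX2 and SP7 (osterix) are its principal transcription factors.

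Values are log2 RMA signals per probe set, and a change is a difference of means on that scale, where 1 is a doubling. A gene was represented by 1 probe set, and 9731 genes passed a signal floor of 100 (6.64 on the log2 scale) in at least 4 of the 12 arrays. A value under the floor is not taken as a level, so a change from or to such a day is uncertain in size and does not rank against others. A gene is said to have risen or fallen, or to have been called, when limma gave a Benjamini-Hochberg adjusted p of at most 0.05 and the change was at least 1.5-fold (0.58 on the log2 scale). Errors after ± are limma standard errors for 2 arrays against 2, with a median of 0.07 over all probe sets tested. Within a day, the parental pair correlated across probe sets with r = 0.997 at each of the 3 days.

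The cells had the markers of their label. Of 12 osteoblast markers with a probe set of their own, 9 lay above the floor in all 4 arrays (COL1A1, COL1A2, SPARC, RUNX2, ALPL, DLX5, SP7, IBSP and PTH1R), and the 3 below it were SPP1, MEPE and DMP1. Markers of other cells, among them CDH1, PECAM1, CDH5, PTPRC, CD14, ADIPOQ, PLIN1 and COL2A1, lay at or under the floor in all 4 arrays. None of the 12 endothelial, 15 macrophage and osteoclast or 9 lymphoid and erythroid markers measured was above the floor in all 4. Of 14 epithelial markers KRT18 and EPCAM were above it, and of the chondrocyte markers SOX9. The summed signal of the 8 adipocyte markers was 1088 and 1111 at day 7 and 1540 and 1592 at day 14, with CFD and PPARG the 2 members above the floor. CFD changed by 0.66 and PPARG by 0.0003, and the other 6 lay at or under the floor in all 4 arrays. The higher sum is therefore not a rise of these markers as a group. Of the 2 CD99 probe sets, one read 6.67 to 8.88 in the arrays labelled Sa/CD99 and 11.26 to 11.88 in the parental arrays, and the other overlapped (12.32 to 12.74 and 12.29 to 12.66), so neither set was higher throughout in the arrays labelled as transfected. The study's methods state that CD99 was checked in the profiled samples by real-time PCR, which was not analysed here.

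The array's own controls did not stand still between the days. The probe set for Alu repeats read 14.55 on both day 7 arrays, against 14.34 and 14.31 at day 14 and 14.38 and 14.33 at day 0, and it was also highest at day 7 in the clones (14.49 and 14.50). The transferrin receptor control, as 3′ minus 5′ signal, was -3.25 and -3.32 at day 7 and -2.53 and -2.61 at day 14. At day 0 it was -2.64 and -2.45, and in the clones it was also lowest at day 7 (-3.54 and -3.52). The spike-in control cre, which is not cell RNA, read 13.54 on both parental arrays of day 7. It read 13.36 and 13.4 at day 0 and 13.41 and 13.43 at day 14. In the clones cre was highest at day 7 as well (13.66 and 13.76). The 3′ to 5′ difference of ACTB was small on all 4 arrays (0.13 and 0.14 at day 7, 0.20 and 0.24 at day 14). Another spike-in control, bioB, was lowest at day 7 in the parent and in wt22 but not in wt36. Alu, the transferrin receptor and cre thus left at day 7 and came back, the course of the genes called reversed below. The part of these values in the results, the reversals among them, was not tested.

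By the thresholds of p and fold together, the second week lowered more genes than it raised. At day 14, 429 genes were higher than at day 7 (4.41% of those tested) and 941 were lower (9.67%), 1370 in all. Over all genes the median change was 0.10, so single changes are to be read against a small general shift upward. Normalizing the tested probe sets of the 6 arrays again by quantiles moved the balance: 646 genes were then higher and 810 lower, and the share of higher among the calls went from 31.3% to 44.4%. With adjusted p alone and no fold required the balance turned, with 4073 genes higher and 2695 lower (60.2% higher). In 55 of the 429 rises both day 7 arrays were at or under the floor, and in 109 of the 941 falls both day 14 arrays were. In the first week 812 genes rose (8.34%) and 710 fell (7.3%), and between day 0 and day 14 595 were higher (6.11%) and 567 lower (5.83%).

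Sorting the 1370 genes by what they had done before gave 4 classes. The first week's change was reversed in 510 genes, of which 384 had risen and then fell and 126 had fallen and then rose. It continued in the same direction in 43 genes, 33 up and 10 down. A further 296 changes, 109 up and 187 down, were new: the first week had moved the gene by less than 1.2-fold and the weeks differed at an adjusted p of at most 0.05. That difference between the weeks by itself passed in 6527 genes (67.1%), so it selected little. The other 521 changes (161 up, 360 down) followed a first-week change that was too large to count as new or too small or uncertain to be called. The differences of week 1 and week 2 share the day 7 arrays, with opposite signs, and are therefore not independent of each other, whereas day 14 against day 0 does not use those arrays.

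**Figure D1:**
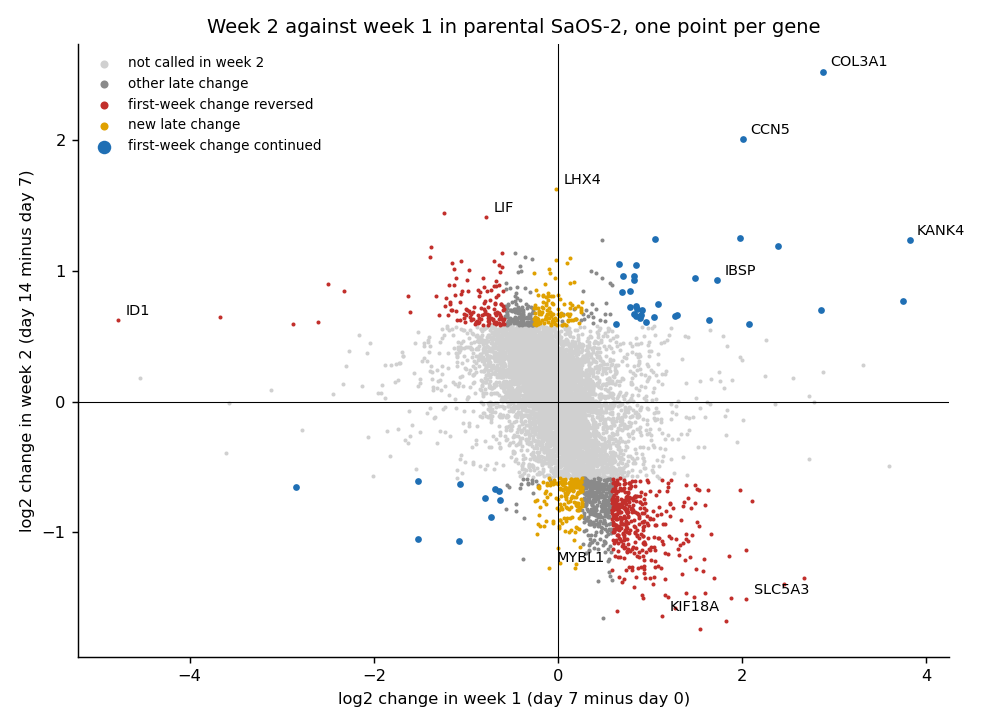
Log2 change of each gene in week 2 (day 14 minus day 7, vertical) against week 1 (day 7 minus day 0, horizontal) in parental SaOS-2, coloured by class. The 384 genes that rose and then fell, at the lower right, outnumber the 126 that fell and then rose, at the upper left, and COL3A1, CCN5 and KANK4 at the upper right were called higher in both weeks.

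Within the reversed class the return was close to complete at the median, and the class was more frequent among early rises than early falls. The class required a second-week change of at least 1.5-fold, so smaller returns were left out. The percentages of return below follow in part from that rule. Among the 384 genes that rose and then fell, the median change was 0.78 in week 1 and -0.90 in week 2. Of these, 358 were not called between day 14 and day 0 by p and fold together. An uncalled difference can still pass on adjusted p alone, as in HMGCS1 (0.44, limma adjusted p = 0.00056). The second-week change was 113.6% of the first at the median, it was under 50% in 9 genes and over 150% in 51. Among the 126 that fell and then rose, the medians were -0.83 and 0.70, the return was 86.7% of the fall, and 116 were not called between day 14 and day 0. Seen from the first week, 47.3% of the 812 early rises and 17.7% of the 710 early falls were reversed, and 395 rises and 574 falls were followed by no call in week 2. Among those without a call, 254 of the 395 rises moved downward (median over the 395 of -0.12) and 477 of the 574 falls moved upward (median over the 574 of 0.30). The higher frequency among rises thus belongs to the calls at this threshold and not to the direction of movement. At day 14, 305 of the 812 early rises (37.6%) and 268 of the 710 early falls (37.7%) were still called against day 0 in their first direction.

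Among the genes that kept rising, the 2 largest second-week rises were in matrix genes. COL3A1, a fibrillar collagen, read 4.93 and 5.28 at day 0, 7.99 on both arrays at day 7 and 10.51 on both at day 14, a second-week rise of 2.52 ± 0.10 after 2.88 in the first (limma adjusted p = 5.93e-06). All 3 of its probe sets rose. CCN5, a secreted matricellular protein of the CCN family, read 5.05 and 5.04, then 7.11 and 7.00, then 9.05 and 9.06, a second-week rise of 2.01 ± 0.06. Both genes were under the floor at day 0, so the size of their first-week rise is uncertain. These were the 2 largest rises of the second week, and in each the 3 days were far apart compared with the gap between arrays of a day. Matrix genes did not all rise. Of 24 proteoglycans and matricellular proteins tested, CCN5 among them, 5 rose and 2 fell, beside 4.41% and 9.67% of all genes. The 2 that fell were reversals, HAPLN1 (-0.78 ± 0.08 after 1.49, with 1 of 4 probe sets called) and CCN3 (-0.64 ± 0.07 after 1.49, under the floor at day 0).

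Other genes that continued upward were COLEC12, a collectin scavenger receptor (1.98, then 1.25 ± 0.07), KANK4, a cytoskeletal adaptor (3.82, then 1.24 ± 0.09), and FGFBP2, a growth factor-binding protein (2.39, then 1.19 ± 0.06). COLEC12 and KANK4 were under the floor at day 0, which leaves their first-week size uncertain. The LIM protein CRIP2 rose by 1.05 and then by 1.24 ± 0.06. CDKN1C, the cyclin-dependent kinase inhibitor p57, read 6.79 and 6.69 at day 0, 7.39 and 7.40 at day 7, and 8.43 and 8.46 at day 14, a larger step in the second week (1.05 ± 0.06) than in the first (0.66). The basement membrane protein NID2 (0.82, then 0.96 ± 0.09), the protease PLAU (urokinase; 1.64, then 0.62 ± 0.06) and CFD, the serine protease complement factor D (0.84, then 0.66 ± 0.06), rose in both weeks as well. Day 14 was above day 0 in all 33, which a called rise in each week already implies. Continued falls were few. ID4, a BMP-responsive inhibitor of helix-loop-helix factors, fell by 2.84 and then by another 0.65, from 9.17 and 9.31 at day 0 to 5.66 and 5.83 at day 14, with days 7 and 14 both under the floor.

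Of 26 genes of bone matrix and mineralization 11 were tested, 2 rose (beside 4.41% of all genes) and 9 were not called. The 2 that rose, IBSP and SMPD3, had also been called higher in the first week. IBSP (bone sialoprotein) read 6.70 and 6.84 at day 0, 8.44 and 8.55 at day 7 and 9.41 and 9.44 at day 14, a second-week rise of 0.93 ± 0.07 that was not called with all 12 arrays in the fit. SMPD3, a sphingomyelinase needed for mineralization of bone, rose by 0.93 ± 0.09, from 6.30 and 6.20, under the floor, to 7.15 and 7.21. ALPL, tissue non-specific alkaline phosphatase, changed by 0.22 ± 0.06 (11.86 and 11.81, then 12.13 and 11.99; adjusted p = 0.0165), under the fold required. PTH1R, the parathyroid hormone receptor, changed by 0.46 ± 0.07 and SPARC (osteonectin) by 0.01 ± 0.06. The widest changes among the uncalled were -0.53 in TNFRSF11B (osteoprotegerin) and 0.50 in VDR, the vitamin D receptor, both named after their values were seen. On its probe set of highest signal COL1A1 changed by 0.13 ± 0.11 (limma adjusted p = 0.323) with 12.89 and 13.00 at day 7 against 12.97 and 13.17 at day 14, so that the days overlapped there. Of its 4 probe sets 1 was called higher.

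Of 12 collagens tested, COL1A1 among them, 4 rose (beside 4.41% of all genes higher) and 8 were not called. The 4 were COL3A1 above and the following 3. COL1A2, the partner chain of type I collagen, rose by 0.85 ± 0.06 (10.67 and 10.69, then 11.55 and 11.51), and one of its 2 probe sets was called, though not with all 12 arrays in the fit. The type VI chains COL6A1 (0.67 ± 0.06) and COL6A2 (0.61 ± 0.07) came back from a fall: COL6A1 read 13.05 and 12.93, then 12.12 on both arrays, then 12.82 and 12.77. Among 21 collagen-modifying genes 1 rose, near the 4.41% of all genes. It was BMP1, which cleaves the C-propeptides of fibrillar collagens (0.67 ± 0.07, with 1 of 4 probe sets called).

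The 2 principal factors had changes of opposite sign, and 1 of them was called. SP7 read 8.73 and 8.67 at day 0, 7.51 and 7.5 at day 7 and 8.26 and 8.08 at day 14, a partial return of 0.66 ± 0.07 after a fall of 1.19, which was not called when all 12 arrays shared the estimate of spread. RUNX2 read 11.69 and 11.72, then 12.28 and 12.29, then 11.81 and 11.88, a second-week change of -0.44 ± 0.06 on the probe set of highest signal, too small to be called, although 2 of its 5 probe sets were. Of 15 osteoblast transcription factors tested, SP7 was the 1 that was called, beside 4.41% of all genes higher. None of the 6 osteocyte genes tested was called by limma (1 had a positive and 3 a negative change at an unadjusted p under 0.05).

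Of 18 BMP genes tested, 2 rose and 3 fell, beside 4.41% and 9.67% of all genes. ID1 and ID3, direct targets of BMP signalling, had changed by -4.78 and -3.67 in the first week. ID1 then rose by 0.62 ± 0.06, from 7.30 and 7.22 to 7.83 and 7.93, still far under its day 0 mean of 12.04, and ID3 by 0.65 ± 0.06. The receptor BMPR2 fell by 1.2 ± 0.07 (9.70 and 9.63, then 8.41 and 8.52) and the effector SMAD1 by 0.60 ± 0.08, the latter after an early rise of 1.23 and with 1 of its 2 probe sets of opposite sign. In the TGF-beta list 2 of 20 fell (10%, near the 9.67% of all genes), INHBA, a subunit of activin (-0.70 ± 0.08), and the SMAD co-repressor SKIL (-0.67 ± 0.10). DLX2, a homeobox factor, rose by 0.90 ± 0.11 from a day 7 level under the floor, after a first-week change of -2.5, and RBPJ, the DNA-binding factor of Notch signalling, fell by 1.03 ± 0.07 after a rise of 0.71.

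Contractile genes that had fallen came back in part. Of 20 genes of smooth and skeletal muscle that were tested, 13 had fallen in the first week, beside 7.3% of all genes. In the second 7 rose (beside 4.41% of all genes), 6 of them reversals, and 13 were not called. The list's median change was 0.37, against 0.10 over all genes, after -0.74 in the first week. TAGLN (transgelin) read 12.42 and 12.27 at day 0, 10.10 and 9.94 at day 7 and 10.89 and 10.84 at day 14, a rise of 0.84 ± 0.08 after a change of -2.32. MYL9, the myosin regulatory light chain, read 11.11 and 10.98, then 10.12 and 10.08, then 10.77 on both arrays (0.68 ± 0.06). TNNC1 (troponin C) returned past its start, with 7.70 and 7.83, then 7.09 and 6.99, then 7.90 and 7.89 (0.86 ± 0.07). CSRP1 (0.70 ± 0.05) and TPM2 (tropomyosin; 0.66 ± 0.05) rose as well, both to levels between day 7 and day 0, and CNN2 (calponin 2) rose by 0.83 ± 0.06. Outside the list, TGFB1I1 (Hic-5), a focal adhesion protein that also acts in the nucleus, went from 9.58 and 9.60 to 8.54 on both arrays and back to 9.53 and 9.70 (1.08 ± 0.07).

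Serum response factor binds the CArG box in many contractile promoters. A search of the RefSeq promoters of GRCh38.p14 (250 bases before to 50 after each start, both strands) found one in 1.29% of 35116 promoters, and in 6 of the 15 tested list members that have a promoter there, but among the called ones in 1 of 4, CNN2. The windows of CNN2 (chr19:1026494-1026553, plus strand, 89 bases upstream) and of TGFB1I1 (chr16:31473129-31473188, plus strand, 51 bases upstream) are shown as examples that hold the box. CNN2 rose in week 2 after an uncalled first-week change of -0.46. TGFB1I1, a called reversal, is not a member of the list. Capitals mark the box, which reads alike on both strands, and it is a match of letters only.
CNN2: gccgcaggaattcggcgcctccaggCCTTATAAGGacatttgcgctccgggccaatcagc
TGFB1I1: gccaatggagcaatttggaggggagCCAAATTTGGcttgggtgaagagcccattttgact

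Other genes that fell early and returned had varied roles. GOLGA2, a structural protein of the cis-Golgi, had the largest such rise: 9.44 and 9.46, then 8.21 on both arrays, then 9.68 and 9.62 (1.44 ± 0.06), with 3 of its 4 probe sets called and the other of opposite sign. The non-coding RNA PCAT6 rose by 1.18 ± 0.08 after losing 1.37, and UROS, an enzyme of heme synthesis, by 1.14 ± 0.06 after losing 0.61. SECISBP2L changed by 1.11 ± 0.14 on its brighter probe set, while its other set was called in the opposite direction, so the gene has no single direction. The kinase MAP3K14 (1.06 ± 0.11), the mitochondrial carrier UCP2 (1.01 ± 0.07), the proton pump subunit ATP6V0E2 (1.01 ± 0.06) and CENPV (0.93 ± 0.06) ended at differences from day 0 of -0.11 to 0.04. PCAT6, MAP3K14 and ATP6V0E2 were under the floor at day 7. IGFBP7 (0.76 ± 0.12) and IGFBP6 (0.62 ± 0.08), which bind insulin-like growth factors, were the 2 of 14 genes of that system that rose, beside 4.41% of all genes. IGFBP5 changed by 0.26 ± 0.07. CCN2, a matricellular target of TGF-beta and YAP, rose by 0.60 ± 0.08 after a fall of 0.89.

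Of 38 genes of the amino acid response tested, 11 had fallen in week 1 (beside 7.3% of all genes) and 7 rose in week 2 (beside 4.41%). SLC7A5, a transporter of large neutral amino acids, read 9.75 and 9.62, then 8.80 and 8.72, then 9.51 and 9.38 (0.68 ± 0.07). PHGDH, the first enzyme of serine synthesis, rose by 0.66 ± 0.07 to a difference of -0.01 from day 0, and PSPH, the last, by 0.60 ± 0.09. SESN2, a stress-induced regulator of TORC1 (0.74 ± 0.07), CARS1, the cysteinyl-tRNA synthetase (0.67 ± 0.06), and DDIT4, another inhibitor of TORC1 signalling (0.59 ± 0.06), were new late changes. JDP2 rose by 0.60 ± 0.06. The median of the list was 0.18 against 0.10 for all genes, with 26 of the 38 positive.

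Mitotic genes were among those that fell. Of 50 genes of the spindle and kinetochore, all tested, 13 fell (26%, beside 9.67% of all genes) and 37 were not called. In week 1, 21 of the 50 had already fallen, beside 7.3% of all genes. Only 2 of the 13 were reversals. KIF18A, a kinesin that damps chromosome movement at metaphase, read 6.33 and 6.37 at day 0, 7.52 and 7.45 at day 7 and 5.84 on both arrays at day 14 (-1.64 ± 0.06), and CENPE, the kinetochore kinesin, read 5.83 and 6.21, then 7.61 and 7.37, then 5.88 and 6.13 (-1.49 ± 0.14). Both kinesins were under the floor at days 0 and 14, so the sizes of their rise and fall are uncertain. KNL1, the kinetochore scaffold, which is not in the list, was flat before it fell: 8.38 and 8.35, then 8.41 and 8.36, then 7.10 and 7.20 (-1.23 ± 0.06). The same late onset was seen for the kinesins KIF14 (-0.89 ± 0.11) and KIF15 (-0.82 ± 0.07), for CKAP2L (-0.78 ± 0.07) and for CDK1, the mitotic kinase, which read 10.83 and 10.79, then 10.91 and 11.02, then 10.12 and 10.37 (-0.72 ± 0.09).

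The spindle proteins ASPM (-1.15 ± 0.07) and HMMR (-1.02 ± 0.07), the kinetochore-associated CENPF (-1.09 ± 0.07) and the checkpoint kinase TTK (-0.89 ± 0.06) had changed by 0.29 to 0.51 in the first week, too little to be called. MYBL1, a MYB-family transcription factor outside the list, had the largest new fall of all genes, from 8.51 and 8.49 to 7.18 and 7.28 (-1.27 ± 0.07). The median change of the spindle and kinetochore list was nevertheless only -0.07, since 22 of the 50 had a positive change. MKI67 changed by -0.38 ± 0.06 and TOP2A by -0.56 ± 0.09, neither reaching the fold required, although TOP2A was called without 1 of the day 7 arrays (replicate 1). Of the 2 TOP2A probe sets 1 was called lower, against 0 of the 4 of MKI67. Genes of DNA replication did not follow. Of 44 tested, 2 rose and 2 fell, beside 4.41% and 9.67% of all genes. GINS4 (1.11 ± 0.09) and the licensing factor CDT1 (0.88 ± 0.06) rose, and the polymerase subunit POLA1 (-0.73 ± 0.09) and the cyclin CCNE2 (-0.68 ± 0.08) fell. MCM2 changed by 0.11 ± 0.06 and CDKN1A (p21), which had gained 0.79 in week 1, by 0.13 ± 0.05 (adjusted p = 0.0571).

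**Figure D2:**
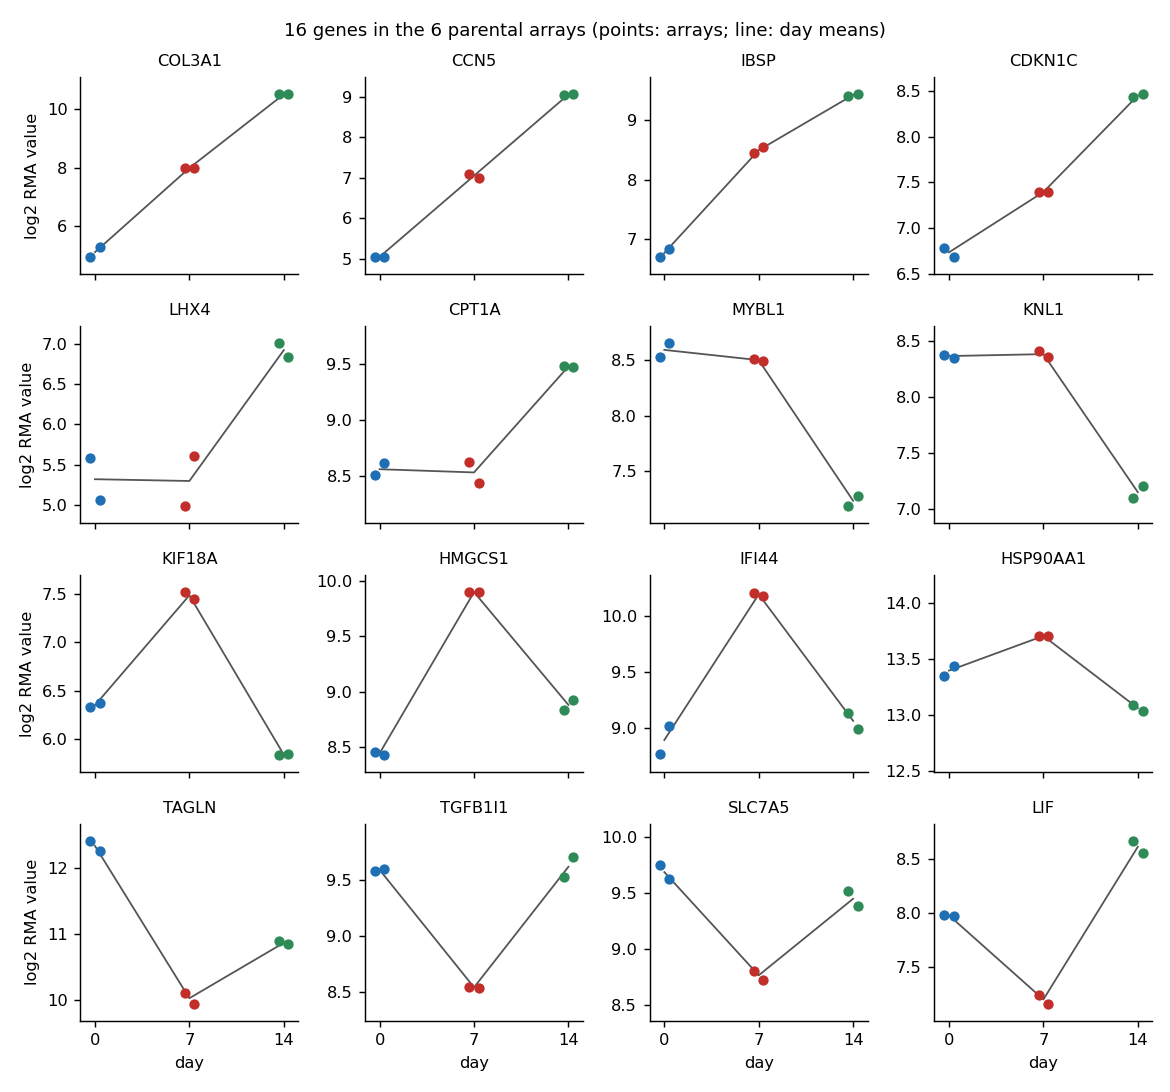
Log2 RMA values of 16 genes in the 6 parental arrays at days 0, 7 and 14 (points are arrays, lines join the day means, and each panel has its own vertical scale of at least 1.6 units). The top row rose in both weeks, the second row was called after day 7 only, the third row had its highest values at day 7 and the bottom row its lowest, with TAGLN at day 14 still far under day 0.

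The largest fitted falls were mostly reversals, in genes of unrelated roles. ZBTB41, a zinc finger protein, read 5.76 and 6.0, then 7.5 and 7.35, then 5.70 and 5.67 (-1.74 ± 0.09), under the floor at days 0 and 14. ANKRD12, a nuclear receptor co-regulator (-1.68 ± 0.08), and MKLN1 (muskelin; -1.58 ± 0.09 with all 4 probe sets lower) followed. SLC5A3, the sodium-coupled myo-inositol transporter, read 9.17 and 9.11, then 11.32 and 11.06, then 9.68 on both arrays (-1.51 ± 0.09). RAB27B, a GTPase of vesicle secretion (-1.5 ± 0.05), VPS13A, a lipid transfer protein (-1.49 ± 0.06 with all 3 probe sets lower), the mismatch repair gene PMS1 (-1.46 ± 0.09), DENND1B (-1.46 ± 0.12), the potassium channel KCNN3 (-1.39 ± 0.17), CREBRF (-1.35 ± 0.10) and EVI2A (-1.35 ± 0.08) peaked at day 7 too. GTF2H2B (-1.65 ± 0.07), the non-coding RNAs MIR181A2HG (-1.60 ± 0.11) and LINC00869 (-1.51 ± 0.09) completed the group, and GTF2H2B has near-identical copies whose transcripts its probes may not tell apart. ANKRD12, CREBRF and LINC00869 were under the floor at days 0 and 14, KCNN3 and EVI2A at day 0 and GTF2H2B and MIR181A2HG at day 14, so their order is not firm.

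Sterol genes that had risen fell back in part. Of 27 genes of sterol synthesis and SREBP targets tested, 13 had risen by day 7 (beside 8.34% of all genes) and 5 fell by day 14 (beside 9.67%), 4 of them reversals. HMGCS1, which makes HMG-CoA, read 8.46 and 8.43, then 9.90 on both arrays, then 8.84 and 8.92 (-1.02 ± 0.06). IDI1, the isopentenyl diphosphate isomerase, fell by 1.05 (SE 0.06) with 2 of 3 probe sets called and 1 of opposite sign. ELOVL6, a fatty acid elongase (-1.18 ± 0.07), STARD4, a sterol carrier (-1.11 ± 0.06), and SC5D, a late enzyme of the pathway (-0.78 ± 0.06), fell with them, ELOVL6 from a rise that began under the floor. The median of the list was 0.52 in week 1 and -0.17 in week 2, with 21 of 27 members negative and a median of 0.46 from day 0 to day 14.

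Interferon-stimulated genes had also risen early. Of 25 tested, 16 had risen by day 7, beside 8.34% of all genes. In week 2, 6 fell (beside 9.67% of all genes), all of them reversals, and 1 rose (beside 4.41%). IFI44 read 8.77 and 9.02, then 10.21 and 10.18, then 9.14 and 8.99 (-1.13 ± 0.09). SAMD9 (-0.92 ± 0.10), the GTPase GBP3 (-0.86 ± 0.07), the ADP-ribosyltransferases PARP14 (-0.81 ± 0.06) and PARP9 (-0.67 ± 0.07), and IFIT3, which binds viral RNA in complex with its relatives (-0.74 ± 0.06), fell too. SAMD9 was under the floor at days 0 and 14. IFIT3 read 7.64 and 7.70, then 8.42 and 8.44, then 7.70 and 7.69. IFITM1, a membrane protein that restricts virus entry, instead rose again, from 9.42 and 9.31 to 10.34 and 10.22 and then 10.99 and 10.98 (0.70 ± 0.07). The list's median was -0.08 in week 2 after 0.76 in week 1, and 0.43 from day 0 to day 14.

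Interferon acts on such genes through the ISRE, searched here as GAAANNGAAA on both strands of the same promoters. A match was found in 3.57% of all 35116 promoters, in 18 of the 22 tested members of the list that have a promoter there, and in 7 of the 7 called ones, so the motif did not set the called members apart from the rest of the list. The windows of 5 genes that fell and of IFITM1, which rose, are shown to let the sites be compared. Capitals mark the motif, which appears as TTTCNNTTTC where it lies on the opposite strand. They lie at chr1:78649746-78649805 (IFI44, plus), chr7:93118081-93118140 (SAMD9, minus), chr3:122680785-122680838 (PARP14, plus), chr3:122564307-122564366 (PARP9, minus), chr10:89332453-89332512 (IFIT3, plus) and chr11:313975-314034 (IFITM1, plus) of GRCh38.p14, each read 5′ to 3′ on the gene's strand and none beyond the start site.
IFI44: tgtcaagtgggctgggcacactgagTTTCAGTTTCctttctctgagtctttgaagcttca
SAMD9: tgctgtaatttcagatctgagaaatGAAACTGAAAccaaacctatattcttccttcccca
PARP14: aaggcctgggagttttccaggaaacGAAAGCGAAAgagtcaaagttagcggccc
PARP9: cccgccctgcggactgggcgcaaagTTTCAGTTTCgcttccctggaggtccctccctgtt
IFIT3: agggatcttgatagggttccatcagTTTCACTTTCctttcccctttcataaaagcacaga
IFITM1: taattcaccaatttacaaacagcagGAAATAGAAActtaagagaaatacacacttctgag

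Of 15 heat shock genes tested 4 fell, beside 9.67% of all genes: the HSP70 partner DNAJB4 (-1.02 ± 0.09), HSPH1, a nucleotide exchange factor (-0.84 ± 0.08), CHORDC1 (-0.70 ± 0.10) and HSP90AA1, the inducible cytosolic HSP90 (13.70 on both arrays at day 7, 13.08 and 13.03 at day 14, -0.64 ± 0.06). In the endoplasmic reticulum 4 of 29 fell, a share nearer that background, the HSP90 paralogue HSP90B1 (-0.62 ± 0.06) and the co-chaperones DNAJC10 (-0.79 ± 0.06), DNAJB9 (-0.75 ± 0.07) and DNAJC3 (-0.59 ± 0.07). Of 23 apoptosis regulators 3 fell and 1 rose, shares near the background of 9.67% and 4.41%. The 3 were the inhibitors BIRC2 (-0.93 ± 0.06) and XIAP (-0.78 ± 0.09) and the BH3-only protein PMAIP1 (NOXA; -0.68 ± 0.06 after a rise of 1.97), and the 1 was the death receptor TNFRSF10A (0.76 ± 0.12), under the floor at days 0 and 7.

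The new late rises were dispersed over functions. LHX4, a LIM homeodomain factor, had the largest, from 4.98 and 5.61 at day 7 to 7.01 and 6.84 at day 14 (1.63 ± 0.22), and its values of days 0 and 7 (5.58, 5.06, 4.98 and 5.61) all lay under the signal floor, so its place in the order is not firm. The transcription factor GLIS2 rose by 1.1 ± 0.05, from 8.02 and 7.98 to 9.10 on both arrays. RALGDS, an exchange factor for the Ral GTPases (1.08 ± 0.07), and the protocadherin DCHS1 (1.06 ± 0.07) rose to a similar degree. CPT1A, which admits fatty acids to mitochondrial oxidation, read 8.51 and 8.62, then 8.63 and 8.44, then 9.49 and 9.48 (0.95 ± 0.08). The secreted protein CRISPLD2 (1.02 ± 0.07), the bile acid-binding protein FABP6 (0.99 ± 0.15), the pseudogene EP400P1 (0.98 ± 0.08), PPFIBP2 (0.92 ± 0.07) and ZC3H3 (0.90 ± 0.09) completed the 10 largest, with PPFIBP2 under the floor at days 0 and 7 and FABP6 under it at all 3 days. The basement membrane chains LAMB1 (0.74 ± 0.08) and NID1 (0.62 ± 0.08) also began late, each with a second probe set of opposite sign, as did TAP1, the peptide transporter of antigen presentation (0.63 ± 0.06).

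Of the new falls other than MYBL1 and the mitotic genes above, GOLGA8A (-1.27 ± 0.06), a member of a family of near-identical golgins, ZNF566 (-1.24 ± 0.13), LINC01279 (-1.12 ± 0.08) and the ubiquitin ligase TRIM2 (-1.11 ± 0.06) were the largest. The cGMP phosphodiesterase PDE5A (-1.06 ± 0.08), the adhesion molecule ALCAM (9.38 and 9.45, then 8.45 and 8.35, -1.01 ± 0.06), FAM13B (-1.0 ± 0.06) and CIP2A, an inhibitor of protein phosphatase 2A (-1.0 ± 0.10), followed. The matrix protease ADAMTS5 fell by 1.30 (SE 0.08; 9.38 and 9.22, then 7.99 and 8.01) and SLC30A1, a zinc exporter, changed by -1.21 (SE 0.07; 9.05 and 9.04, then 7.76 and 7.92). Neither counts as new, since uncalled changes of 0.55 and -0.38 preceded them in the first week. At day 14 ZNF566, LINC01279, PDE5A and CIP2A were under the floor.

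Of 11 cytokine genes and NF-κB targets tested, 5 rose, beside 4.41% of all genes, and 6 were not called. LIF, a cytokine of the IL-6 family, read 7.98 and 7.97, then 7.24 and 7.16, then 8.67 and 8.56, a rise of 1.41 ± 0.06 that ended 0.63 above day 0. IL11, of the same family, read 10.07 and 10.08, then 9.62 and 9.59, then 10.72 and 10.76 (1.14 ± 0.05). IL11 was not called when all 12 arrays shared the estimate of spread (limma adjusted p = 0.105), and its changes in the clones were -0.10 and -0.96 against 0.46 and -0.78 for LIF. The receptor TNFRSF9 (0.86 ± 0.08), IL32 (0.85 ± 0.06, under the floor at day 7) and CSF1, the growth factor of macrophages and osteoclast precursors (0.62 ± 0.05), also rose.

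Other lists changed little in the second week. Of 40 glycolysis and hypoxia genes 25 had fallen in week 1, beside 7.3% of all genes, with a list median of -0.74. In week 2 they had 1 rise and 2 falls (beside 4.41% and 9.67%) and a median of 0.09, so that their median from day 0 to day 14 was still -0.71. None of 35 subunits of the respiratory chain and ATP synthase was called by limma. Of these, 28 had a positive change, beside 5777 of the 9731 genes tested. At an unadjusted p under 0.05 in limma, 24 were positive and 4 negative. Over all genes 4073 were higher by the stricter adjusted p alone. The list median was 0.27, against 0.10 over all genes, after -0.18 in week 1. None of 11 histone genes was called (3 positive and 3 negative at an unadjusted p under 0.05). TXNIP changed by 0.48 ± 0.07 on its probe set of highest signal, although 2 of its 3 probe sets were called higher. CD46, a regulator of complement, fell by 0.60 (SE 0.05), and KRT18, the 1 epithelial marker called, rose by 0.66 ± 0.06 after a fall of 0.83. EPCAM, the other epithelial marker above the floor, changed by -0.35 ± 0.10, and CDH1 stayed under the floor.

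**Figure D3:**
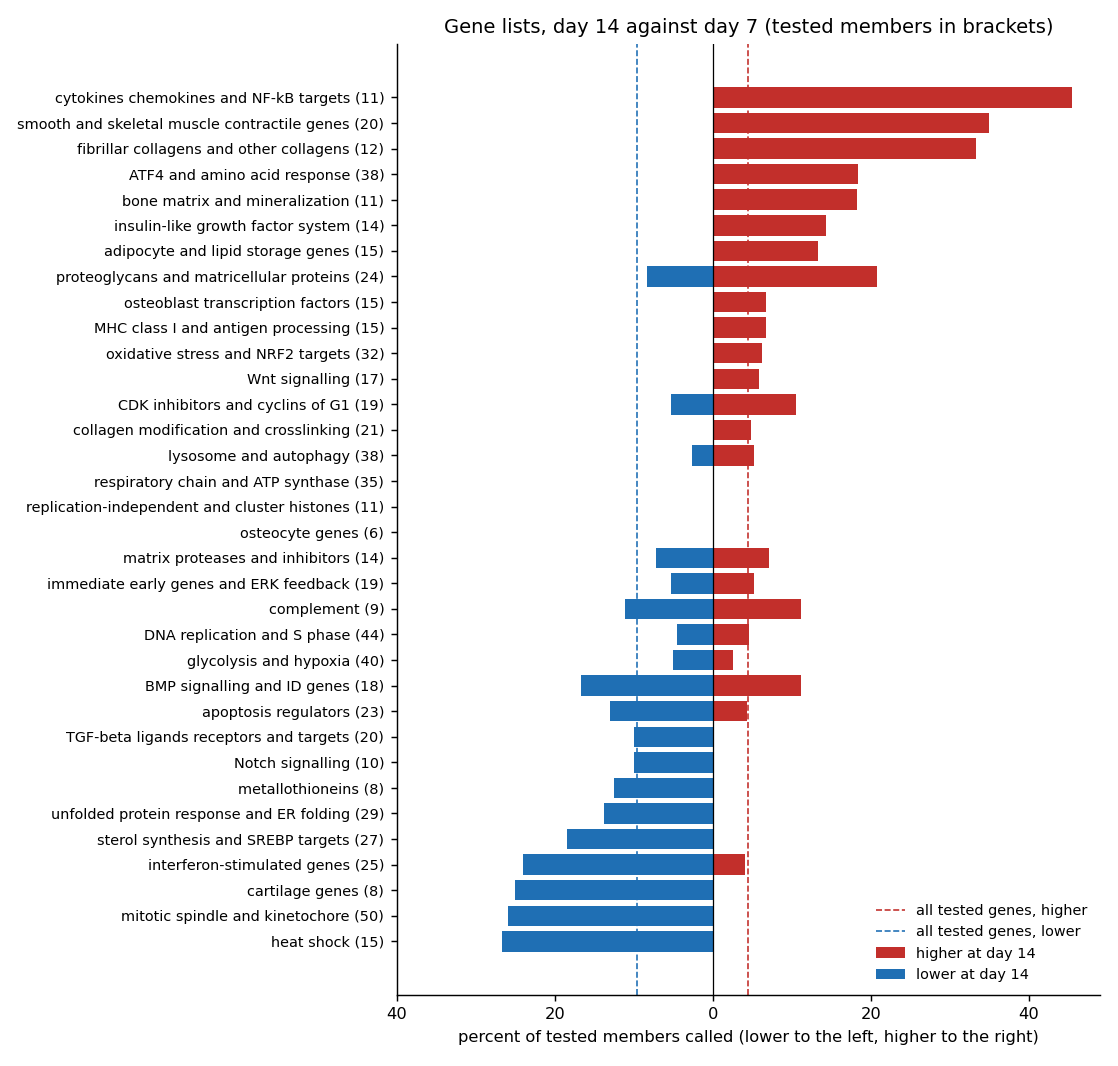
Percent of the tested members of each gene list that rose (red, right) or fell (blue, left) between day 7 and day 14 in parental SaOS-2, with the share among all tested genes as dashed lines (4.41% and 9.67%). Cytokines and contractile genes extend farthest to the right, heat shock and mitotic genes farthest to the left, and the respiratory chain, histone and osteocyte lists have no bar.

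The direction of the second week went with the span of the gene, that is, the genomic distance from its start to its end in RefSeq. Of 1975 genes under 10 kb, 7.44% rose and 2.53% fell. Of 1780 genes over 100 kb, 2.36% rose and 16.7% fell, and the 2 groups between lay in order. The correlation of log10 span with the week 2 change was -0.31 across 9727 genes, which are not independent replicates, and 0.20 with the week 1 change. Reversed genes that fell had a median span of 78.3 kb and those that rose 14.95 kb. Between day 0 and day 14 the correlation was -0.08. In the clones the medians over the same 4 spans ran from 0.19 to -0.09. The Alu control, which was highest at day 7 in all lines, moved with this pattern, and its part in the result was not tested.

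Shares of calls also differed between families named by their symbols. Of 40 ubiquitin proteases of the USP family 12 fell (30%; median span 64.4 kb) and of 25 kinesins 6 fell (24%; 57.4 kb), against 9.67% of all genes. Of 225 ZNF zinc finger genes 33 fell (14.7%; 22.8 kb). None of the 53 ribosomal protein genes of the cytosol (5.21 kb) was called (9 positive and 3 negative at an unadjusted p under 0.05), and of 76 of the mitochondrial ribosome 2 rose. These families were chosen after results of the data were known, and the counts are descriptions.

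**Figure D4:**
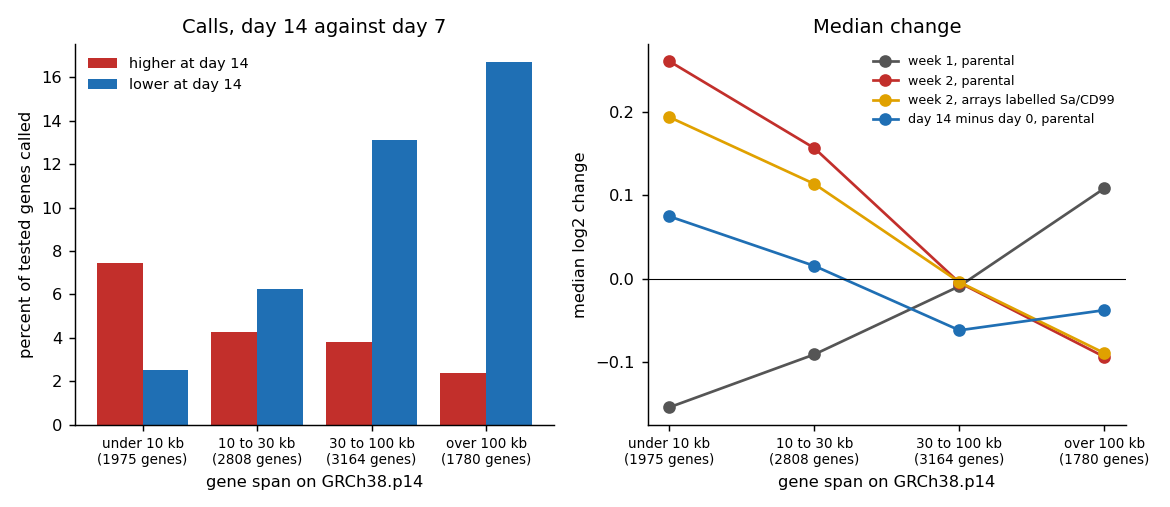
Left, percent of tested genes that rose (red) or fell (blue) between day 7 and day 14 in parental SaOS-2 by gene span in kb. Right, the median log2 change of the same genes in week 1, in week 2 and from day 0 to day 14 in the parent and in week 2 in the arrays labelled Sa/CD99. Falls go from 2.53% to 16.7% of genes as span increases, and the lines of week 1 and week 2 cross.

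Whether the second week ran differently in the parent than in the arrays labelled Sa/CD99 was tested as an interaction over all 12 arrays. It was called in 0% of the 9731 genes, 241 genes having an unadjusted p under 0.05 in limma, and a fit with the clone number as a block called none either. Of the 941 genes that fell in the parent, both clones had a negative change in 932, with medians of -0.92 in wt22 and -0.64 in wt36 against -0.79 in the parent. Of the 429 that rose, both clones had a positive change in 392, with medians of 0.56 and 0.42 against 0.67. Over all tested genes 61.8% had a positive change in wt22 and 51.7% in wt36. Clone arrays are not part of the parental comparison, but the days were shared by all lines, and handling by day and differentiation cannot be told apart.

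Genes of the second week that went otherwise in a clone were mainly among the rises. LIF changed by 0.46 in wt22 and by -0.78 in wt36, and TPM2 by 0.61 and -0.84. COL1A2 changed by 0.53 and -1.33 in the 2 clones, IBSP by -0.62 and 1.68, and CCN2 by 0.13 and -1.14. COL3A1 changed by 1.34 and 2.19 and CCN5 by 1.29 and 1.70, and KIF18A by -2.63 and -1.39, in the direction of the parent in both. Of the 158 genes named by rule, 27 were no longer called in week 2 when all 12 arrays shared the estimate of spread, IBSP, COL1A2, TPM2, SP7 and IL11 among them.

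**Figure D5:**
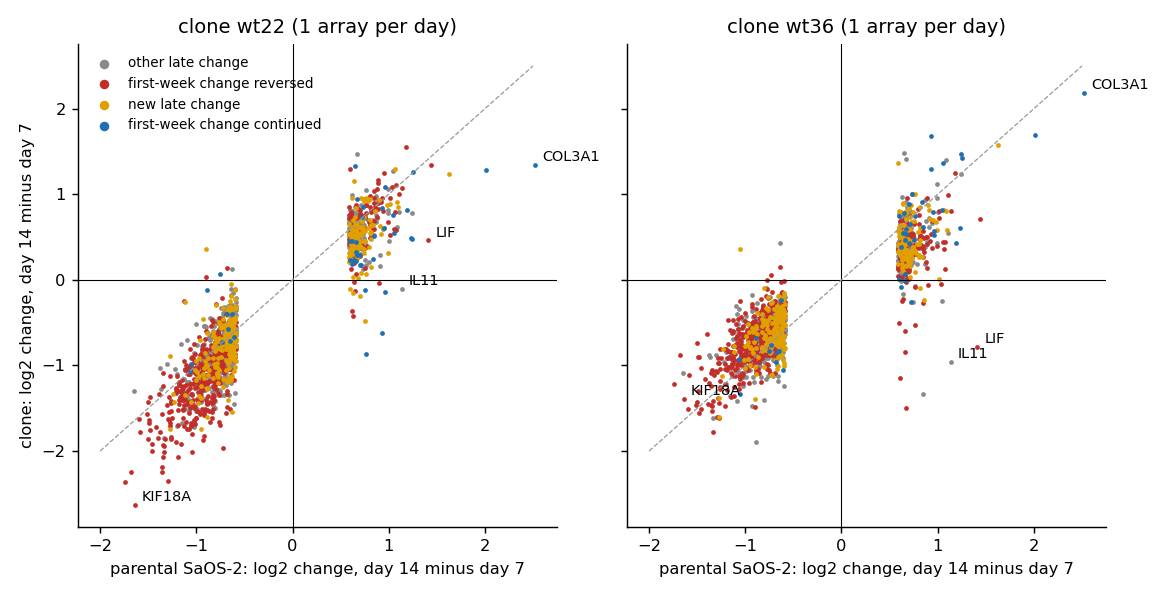
Log2 change from day 7 to day 14 of the genes called in parental SaOS-2, in the parent (horizontal) against clone wt22 (left) and clone wt36 (right), 1 array per day and clone, coloured by class; the dashed line marks equal change. Nearly all falls of the parent lie below 0 in both clones, and LIF and IL11 are the rises of over 1 that lie farthest below the dashed line in wt36.

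The choice of probe set mattered for few directions. Of the 1370 called genes 695 had 1 probe set past the floor and 675 several. In 4 of these a second set was called in the opposite direction (SECISBP2L, MALAT1, RCOR3 and SLC35D2, the last 3 named after their values were seen), and in 42 a second set had the opposite sign. A call did not always extend to every set of a named gene. Among others, RBPJ, UCP2, UROS, SESN2, CDT1, SLC30A1, IFIT3 and HSP90B1 were called in 1 of 2 sets, and BMPR2 and HSP90AA1 in 2 of 4.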

How the data were processed

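Affymetrix HG-U133 Plus 2.0 arrays measured total RNA of 12 samples. The table deposited by the authors holds log2 RMA values of each probe set (background correction, quantile normalization of the arrays together, summary of the probes). The submitters' processing notes list affy and RMA as tools; for neither is a version given in the sources used here. Of 54675 probe sets, 62 controls were left out and 18677 passed 2^value > 100 in at least 4 of 12 arrays, 520 of them in exactly 4, while 489 passed in 3. RMA compresses the changes of dim probe sets. No sequencing depth applies; precision is limited by having 2 arrays a day.

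Names came from the platform's annotation, updated by gene ID to GRCh38.p14: 16527 of the tested probe sets had 1 gene (16523 matched by ID), 829 several and 1321 none. The set of highest mean over 12 arrays stood for a gene. A mean per day was fitted to the 6 parental arrays with limma 3.58.1 in R 4.3.3 (3 residual and 4.63 prior degrees of freedom), with Benjamini-Hochberg adjustment over all 18677 probe sets; the interaction was fitted to all 12 arrays. The fits were tested on simulated data. Parental replicate numbers did not pair the arrays (correlations of deviations -0.03, 0.23 and -0.04 between days), whereas clone numbers mark the same line.

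The genes named were, among called genes whose arrays did not overlap, the 12 largest rises and falls, the 10 largest reversals and new changes per direction and up to 6 per list, with a fixed panel of 21 genes (15 tested); 1 non-coding RNA is not reported here. The members and lists were chosen with earlier results of these data known. Alternatives were the arrays in the fit, filters, normalization, variance model, replicate number, fold, probe set rule and leaving out each array.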

Additional observations from a re-analysis of the deposited data

Results flagged for a closer look

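Among the named genes called in week 2, 3 had both day 14 arrays of the parent above both day 7 arrays and a change of opposite sign in each clone. DLX2 changed by 0.90 in the parent, by -0.03 in wt22 and by -0.06 in wt36, values near 0 in the clones, and a difference of 0.94 between the parent and the mean of the clones. ID1 changed by 0.62, -0.43 and -0.24, a difference of 0.96. IL11 changed by 1.14, -0.10 and -0.96, a difference of 1.67. The interaction in limma did not pass for any of the 3 (adjusted p = 1.0 for each, and 0.601, 0.601 and 0.649 with the clone number as a block), and the 3 were picked for this pattern among 158 named genes. With 2 arrays per day, no outlying array could be looked for within a day.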

How the results depend on the processing

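The replicate block changed no call of a named gene and left 429 rises, 941 falls, 510 reversals and 43 continued changes, with 297 new changes. Leaving out each parental array in turn gave 428 to 501 rises, 925 to 973 falls, 486 to 541 reversals, 42 to 49 continued and 276 to 324 new changes. With all 12 arrays in the fit, continued changes went from 43 to 25 and new changes from 296 to 159. Quantile normalization again gave 646 rises. With adjusted p alone the balance turned, with 4073 genes higher, 2695 lower, 3924 reversals, 662 continued and 1424 new changes, and at 2-fold 31, 181, 59, 8 and 13. With the probe set of smallest p, reversals were 783, a rule that selects for change. Counting probe sets in place of genes gave 705, 2511, 1330, 69 and 644. The other alternatives, the 4 arrays of days 7 and 14, the filters and the variance trend, stayed within 1.5 times of each count. The 4 arrays alone give no classes, since day 0 is absent. No named gene changed direction under any alternative; 62 of 2332 gene and setting pairs lost a call, 27 of them with all 12 arrays and 8 with quantile normalization again (CCN3, CD46, CDKN2B, COL6A2, DDIT4, DNAJC3, ID4 and INSIG2). List medians moved by more than the spread between arrays in 97 of 525 cases. The interaction was called in 0 genes under each alternative, chosen after seeing the data, with 87 to 677 at an unadjusted p under 0.05. Signals near the floor, as for LHX4, limit what can be said of dim genes.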
